A study of Mus musculus with 73 samples.

Results

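The Peg3 domain is a group of imprinted genes on proximal mouse chromosome 7. Its members here were the rows named Peg3, Usp29 and Zim1, which are 3 of the 30546 genes in the deposited table, and all 3 were present. Each was followed in 72 libraries of epiblast, the tissue that forms the embryo proper, and of extraembryonic ectoderm (ExE), the trophoblast tissue that lies next to it. Both tissues came from single mouse embryos at embryonic day 6.5. In mm10 coordinates Zim1 spanned chr7:6674444-6696541, Peg3 chr7:6703892-6730441 and Usp29 chr7:6730560-6967220, with 118 bases between the last pair.

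The labels gave 12 groups of genotype, cross and tissue, with the mother named first in each cross. The wild type was represented by 7 epiblast and 7 ExE libraries of BDF1xCAST and by 4 and 4 of CASTxBDF1. All knockouts were BDF1xCAST and were made in zygotes with Cas9 mRNA and several guides per gene, so each embryo is its own editing event and not a line. They covered Dnmt1 (3 epiblast and 3 ExE libraries), G9a-Glp, which is Ehmt1 and Ehmt2 together (6 and 8), Rnf2 (6 and 5) and Eed (9 and 10). BDF1xCAST zygotes were made by sperm injection and carried by CD-1 females, whereas CASTxBDF1 embryos came from natural mating, so cross and mode of fertilisation cannot be told apart.

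Imprinted genes keep a memory of the parent that passed them on, usually as DNA methylation laid down in egg or sperm. In this domain the egg methylates the shared start region of Peg3 and Usp29, and both are known as paternally expressed genes. Peg3 encodes a zinc finger protein linked to growth and maternal behaviour, Usp29 encodes a deubiquitinating enzyme, and Zim1 encodes a zinc finger protein known to be expressed from the maternal allele. Dnmt1 copies DNA methylation at replication, G9a and Glp methylate histone H3 at lysine 9, Rnf2 is the ubiquitin ligase of Polycomb complex PRC1, and Eed is a core subunit of PRC2.

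The promoter windows are shown because the shared start region of Peg3 and Usp29 is known to carry the methylation imprint of the domain, with that of Zim1 for comparison. No methylation was measured here. The sequences are from RefSeq (GRCm38.p6), cover 250 bases before to 50 bases after the start, run 5′ to 3′ on the gene's own strand, and carry capitals at each CpG. Peg3 lies on the minus strand at chr7:6730370-6730669, and Zim1 on the minus strand at chr7:6696383-6696682.
Peg3: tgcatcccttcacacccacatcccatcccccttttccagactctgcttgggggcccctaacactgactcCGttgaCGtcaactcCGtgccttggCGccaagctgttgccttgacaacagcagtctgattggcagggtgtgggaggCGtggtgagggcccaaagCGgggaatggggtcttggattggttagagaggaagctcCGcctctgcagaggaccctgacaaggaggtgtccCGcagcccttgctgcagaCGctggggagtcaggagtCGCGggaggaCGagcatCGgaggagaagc
Zim1: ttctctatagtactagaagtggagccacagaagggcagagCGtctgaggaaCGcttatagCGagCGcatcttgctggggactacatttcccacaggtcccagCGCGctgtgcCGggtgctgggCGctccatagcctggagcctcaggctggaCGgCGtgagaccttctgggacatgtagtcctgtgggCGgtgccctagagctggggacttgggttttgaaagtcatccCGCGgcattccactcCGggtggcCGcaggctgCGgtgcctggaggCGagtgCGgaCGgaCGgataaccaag
The plus-strand window of Usp29 (chr7:6730333-6730632) shared 263 bases with that of Peg3, as its reverse complement. The Peg3 window held 13 CpG sites, that of Usp29 17 and that of Zim1 20, against a median of 7 over 27025 promoters of the same length. The letters GCCATNTT, part of the motif of the factor YY1, were searched on both strands and matched none of these windows, while 6.23% of all promoters held a match. TGCCGC, the motif bound by the imprint-protecting factor ZFP57 when methylated, matched the Zim1 window once, on the opposite strand from position 231, and 11.6% of all promoters held it. Neither search covered the rest of the differentially methylated region.

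Allele-assigned reads per library ranged from 1141414 to 17653087, and the Rnf2 epiblast libraries were the deepest (5549733 to 17653087). Of the knockout libraries, 6 had no targeted gene below the second-lowest wild-type library of their tissue. They were the ExE library of Dnmt1 embryo 1, the epiblast libraries of G9a-Glp embryos 2 and 7, and the ExE libraries of Rnf2 embryos 2, 5 and 6. For G9a-Glp 1 low gene of the pair was enough. In its epiblast Ehmt2 was below that bound in embryo 1 only, and in its ExE Ehmt1 was not below it in embryos 2, 7 and 8. Guides can disrupt a protein without lowering its mRNA, so this is a statement on reads alone. Over all autosomal genes the maternal share was between 56.3% and 58.6% in every BDF1xCAST library and between 41.9% and 43.9% in every CASTxBDF1 library. BDF1 thus took the larger share of reads in both crosses. Levels are in reads per 1000000 allele-assigned reads (CPM). Epiblast markers summed to at least 1952 CPM in each epiblast library and at most 1302 CPM in each ExE library, where ExE markers summed to at least 531 CPM.

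In the wild type, Peg3 was read almost wholly from the paternal allele in both tissues and both crosses. Peg3 had 150 to 2430 reads per library. Its maternal share in BDF1xCAST epiblast ran from 0% to 2.26%, with a mean of 0.897% ± 0.849 (SD, n = 7). In BDF1xCAST ExE, 6 embryos lay between 0% and 3.20% and embryo 3 stood apart at 9.82%, which gave a mean of 1.94% ± 3.66 (SD, n = 7). The reciprocal cross stayed at or below 0.815% in all 8 libraries. The crosses thus overlapped near 0 whichever strain was the father. The parental term, the log2 ratio of maternal to paternal reads with the strain effect removed, was -7.75 in epiblast (SE 0.25, edgeR adjusted p = 1.22e-14), where 0.319% of genes tested were called. It was -7.85 in ExE (SE 0.46, adjusted p = 3.17e-10), where 0.844% were called.

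**Figure D1:**
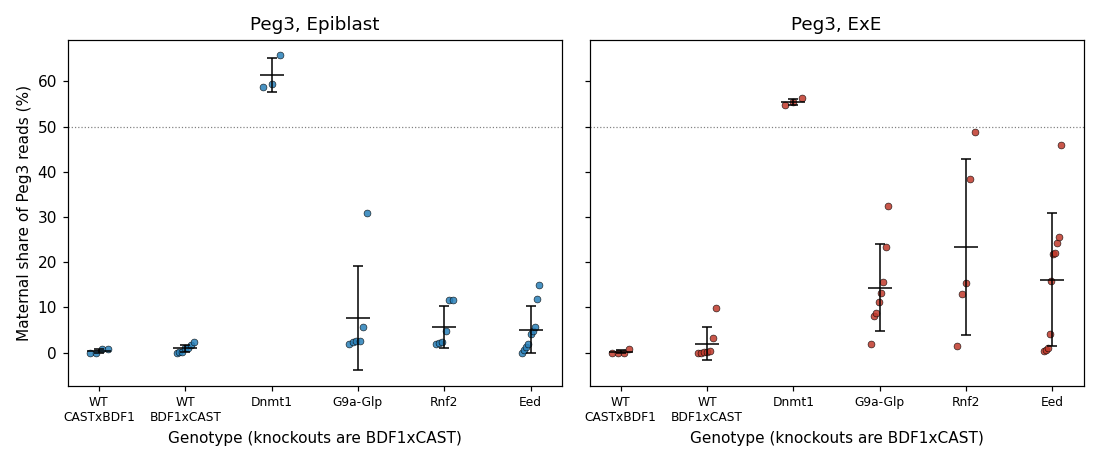
Maternal share of Peg3 reads (percent, y axis) by genotype (x axis) in epiblast (left) and ExE (right). Points are embryos, and bars are mean ± SD over embryos. Wild-type points lie near 0, the Dnmt1 points lie between 54.8% and 65.7%, and the other knockouts spread from the wild-type range up to 48.7%.

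The total level of Peg3 did not differ detectably between the tissues. It was 222 ± 120 CPM in BDF1xCAST epiblast and 227 ± 102 CPM in ExE (SD, n = 7 each). The edgeR log2 difference was 0.08 (SE 0.31, adjusted p = 0.835) in that cross and -0.10 (SE 0.36, adjusted p = 0.835) in CASTxBDF1, where 56.7% and 45.0% of genes were called. CASTxBDF1 embryos had 306 ± 138 CPM in epiblast and 283 ± 109 CPM in ExE (SD, n = 4 each). Between the crosses the log2 difference was 0.53 (SE 0.40, adjusted p = 0.800) in epiblast and 0.31 (SE 0.29, adjusted p = 0.750) in ExE, with 0.0103% and 1.06% of genes called. The allelic ratio did not differ between tissues either (log2 difference -0.09, SE 0.81, adjusted p = 1, with 0.317% of genes called). The spread over embryos, from 87.5 to 393 CPM in BDF1xCAST epiblast, was wider than any of these differences.

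Without Dnmt1, Peg3 was read from both alleles. The maternal share was 59.5%, 58.8% and 65.7% in epiblast embryos 1, 2 and 3, and 54.8%, 56.2% and 55.4% in their ExE. All 6 values lie far above every wild-type embryo, on both sides of the 56.3% to 57.4% that autosomal genes gave as a whole in the same libraries. The edgeR log2 change in the maternal to paternal ratio was 7.92 in epiblast (SE 0.33, adjusted p = 2.95e-12), against 0.908% of genes called. In ExE it was 6.19 (SE 0.59, adjusted p = 1.41e-06), against 0.856% called, with adjusted p between 1.89e-316 and 0.113 over 12 alternatives. Exact two-sided permutation tests of the mean share gave p = 0.0167 in each tissue, the smallest that 3 against 7 embryos can give (adjusted over 8 comparisons, 0.0190). The ExE library of embryo 1, whose Dnmt1 level was not low, had the same Peg3 pattern as the others.

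The change in Dnmt1 embryos was on the maternal allele. In epiblast the maternal allele had 478, 540 and 172 CPM, against at most 2.11 CPM in any wild-type BDF1xCAST embryo. The edgeR log2 change was 8.01 (SE 0.46, adjusted p = 2.53e-07, with 9.59% of genes called). The paternal allele had 326, 378 and 89.9 CPM, which lay within the wild-type range of 85.5 to 393 CPM (log2 change 0.05, SE 0.43, adjusted p = 0.961, with 9.31% of genes called). In ExE it had 193, 186 and 132 CPM (log2 change -0.61, SE 0.28, adjusted p = 0.170, with 13.5% called). In ExE the maternal allele had 234, 239 and 164 CPM (log2 change 5.54, SE 0.82, adjusted p = 0.000989, with 13.0% of genes called), and the wild type at most 22.0 CPM. The total level in epiblast was 661 ± 350 CPM (SD, n = 3), a log2 change of 1.37 (SE 0.42, edgeR adjusted p = 0.0459, with 14.1% of genes called). That call was lost without embryo 1 (adjusted p = 0.157) or embryo 2 (adjusted p = 0.204), within a range of 0.00223 to 0.204 over its alternatives. In ExE the total was 383 ± 74.8 CPM and the change did not pass (log2 0.51, SE 0.28, adjusted p = 0.234, with 18.5% of genes called).

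**Figure D2:**
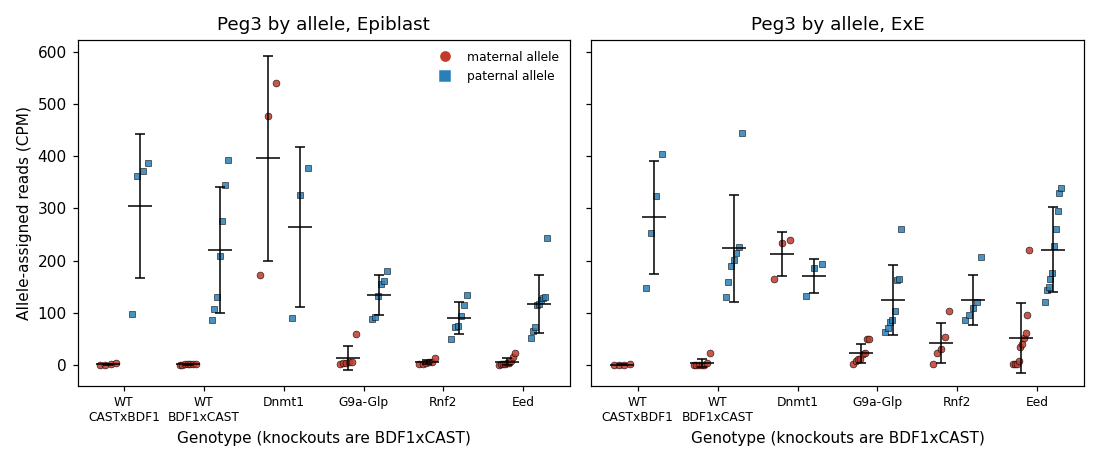
Level of the maternal (red circles) and paternal (blue squares) Peg3 allele in CPM (y axis) by genotype (x axis), in epiblast (left) and ExE (right). Points are embryos and bars are mean ± SD. The maternal allele reaches 540 CPM in Dnmt1 epiblast and 220 CPM in Eed ExE, while the paternal allele of wild-type ExE embryos lies between 130 and 445 CPM.

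In G9a-Glp knockouts the maternal share of Peg3 rose by less, and unevenly. In epiblast it ran from 1.80% to 31.0% with a median of 2.58%, and 5 of 6 embryos lay above all 7 wild types. Embryos 2, 5 and 7 did so narrowly, at 2.63%, 2.53% and 2.28% against a wild-type maximum of 2.26%. The libraries of embryos 2 and 7 are among those named above for having no low targeted gene. Embryo 4, at 31.0%, carried most of the mean of 7.65% ± 11.5 (SD, n = 6). Its Ehmt1, at 19.0 CPM, lay between the lowest and second-lowest wild types (14.5 and 21.4 CPM). Its Ehmt2, at 3.10 CPM, lay above the second-lowest (1.26 CPM). The edgeR log2 change was 3.53 (SE 0.81, adjusted p = 0.0191), where 1.79% of genes were called. Without embryo 4 it was 2.19 (SE 0.53, adjusted p = 0.0321), within a range of 3.59e-33 to 0.235 over 9 alternatives. In ExE the share ran from 1.82% to 32.4% with a median of 12.2%, and 5 of 8 embryos lay above all wild types. The highest, embryo 7, had Ehmt1 at 26.1 CPM, above the second-lowest wild type (17.5 CPM). Its Ehmt2, at 1.86 CPM, was below the lowest (4.33 CPM). The mean was 14.3% ± 9.62 (SD, n = 8) and the log2 change 3.32 (SE 0.67, adjusted p = 0.00925, with 1.10% of genes called). The ExE call was lost under limma (4.98, adjusted p = 0.0716) and with all groups in 1 edgeR fit (3.31, adjusted p = 0.0919), within a range of 1.04e-77 to 0.0919 over 8 alternatives. Exact permutation tests of the share gave p = 0.00233 in epiblast and p = 0.00311 in ExE (both 0.00932 after adjustment over 8 comparisons).

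Rnf2 knockouts showed low maternal shares of Peg3 in epiblast and a wide range in ExE. The epiblast share ran from 1.99% to 11.7% with a median of 3.56%, and 4 of 6 embryos lay above all wild types. The log2 change was 2.98 (SE 0.67, edgeR adjusted p = 0.0401, with 0.696% of genes called). That call was lost under limma (3.01, adjusted p = 0.239), with all groups in 1 edgeR fit (2.99, adjusted p = 0.0775) and with allele counts from the rounded ratio (3.13, adjusted p = 0.0637), within a range of 2.08e-27 to 0.239 over 7 alternatives. In ExE the share was 15.3%, 13.0%, 38.3%, 48.7% and 1.46% in embryos 2, 4, 5, 6 and 7, so that 4 of 5 lay above all wild types. The log2 change was 3.88 (SE 0.90, adjusted p = 0.0417, with 0.922% of genes called), and the exact permutation p for the share was 0.00758 (adjusted 0.0152). Embryos 2, 5 and 6, which include both of the highest values, had 29.5, 39.5 and 62.7 CPM of Rnf2, above the 23.7 CPM of the second-lowest wild type. Embryos 4 and 7, at 22.4 and 21.9 CPM, lay between it and the lowest wild type at 21.4 CPM. Without embryos 2, 5 and 6 the log2 change was 2.34 (SE 0.95, edgeR adjusted p = 0.587). The adjusted p ran from 1.79e-127 to 0.587 over 14 alternatives. Leaving out a single embryo also ended the call, for embryo 2 (adjusted p = 0.0751), 4 (0.0635), 5 (0.0872) and 6 (0.101). All 5 Rnf2 ExE libraries thus had at least as much Rnf2 as the lowest wild type.

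Eed knockouts, in which Eed reads were low in every library, also had a raised maternal share of Peg3 in some embryos. The epiblast share ran from 0% to 14.9% with a median of 4.17%, and 5 of 9 embryos lay above all wild types. The log2 change was 2.94 (SE 0.68, edgeR adjusted p = 0.0205, with 1.06% of genes called). DESeq2 on the same allele counts gave 2.47 (adjusted p = 0.197), and the adjusted p ran from 2.56e-22 to 0.383 over 7 alternatives. In ExE 4 embryos (numbers 1, 2, 3 and 9) had shares of 0.634%, 4.12%, 0.431% and 0.946%, inside the wild-type range. The other 6 had 15.8%, 24.3%, 45.9%, 21.8%, 25.5% and 22.0%, above every wild type. The ExE log2 change was 3.38 (SE 0.89, adjusted p = 0.0338, with 2.65% of genes called). It was lost under limma (4.36, adjusted p = 0.117), within a range of 3.62e-113 to 0.117 over 8 alternatives. Exact permutation tests of the share gave p = 0.0276 in epiblast and p = 0.0153 in ExE (adjusted over 8 comparisons, 0.0276 and 0.0190).

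The maternal allele of Peg3 rose by CPM too, but stayed below the paternal allele in each G9a-Glp, Rnf2 and Eed library. In Eed ExE it had 51.4 ± 67.0 CPM (SD, n = 10), up to 220 CPM, and its log2 change was 3.58 (SE 1.00, edgeR adjusted p = 0.00844), where 33.1% of genes were called. In Rnf2 ExE it had 42.1 ± 38.8 CPM (SD, n = 5; log2 change 3.37, SE 0.94, adjusted p = 0.0232, with 15.6% called). Without the 3 libraries named above that change was 1.99 (adjusted p = 0.425, range over alternatives 0.00122 to 0.425), and without embryo 6 alone 2.70 (adjusted p = 0.0898). In G9a-Glp ExE it had 21.9 ± 18.5 CPM (SD, n = 8; log2 change 2.41, SE 0.81, adjusted p = 0.0628, with 10.5% called). In epiblast the log2 changes were 3.27 for G9a-Glp (adjusted p = 0.00585, with 27.1% called), 1.97 for Rnf2 (adjusted p = 0.0313, with 23.1% called) and 2.14 for Eed (adjusted p = 0.0420, with 28.7% called).

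The paternal allele of Peg3 fell in several knockouts. In Rnf2 epiblast it had 90.0 ± 31.1 CPM (SD, n = 6) against 221 ± 121 CPM (SD, n = 7) in the wild type, and fell by 1.30 on the log2 scale (SE 0.31, edgeR adjusted p = 0.00466). In Eed epiblast it had 117 ± 56.3 CPM (SD, n = 9) and fell by 1.06 (SE 0.29, adjusted p = 0.00733), and in G9a-Glp epiblast it fell by 0.79 (SE 0.29, adjusted p = 0.0448). In ExE it fell by 0.93 in G9a-Glp (SE 0.26, adjusted p = 0.0242) and by 0.89 in Rnf2 (SE 0.26, adjusted p = 0.0235). The share of genes called for the paternal allele was 23.8%, 27.8%, 27.6%, 10.5% and 17.8% in these comparisons, so a call there is common. In Eed ExE the paternal allele stood at 221 ± 81.1 CPM against 224 ± 103 CPM (log2 change -0.19, SE 0.22, adjusted p = 0.522, with 33.4% of genes called). Exact permutation tests on CPM, adjusted over 8 comparisons, passed for none of the paternal levels, with the smallest adjusted p at 0.0845 and an unadjusted p of 0.0198, 0.0448, 0.0317 and 0.0253 in Rnf2 epiblast, Eed epiblast, G9a-Glp ExE and Rnf2 ExE. Without the 2 G9a-Glp epiblast libraries named above that fall was 0.75 (adjusted p = 0.135, range 0.00199 to 0.353). Without the 3 Rnf2 ExE libraries the fall was 0.62 (adjusted p = 0.391, range 0.000243 to 0.391), and leaving out embryo 2, 5, 6 or 7 alone gave an adjusted p of 0.0537 to 0.0581.

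The total level of Peg3 is the sum of both alleles. It fell by 1.24 on the log2 scale in Rnf2 epiblast (SE 0.32, edgeR adjusted p = 0.00748, with 31.0% of genes called) and by 0.99 in Eed epiblast (SE 0.31, adjusted p = 0.0155, with 35.7% called). Exact permutation tests on total CPM did not pass in either (p = 0.0245 and p = 0.0523, both 0.133 after adjustment over 8 comparisons). In edgeR it did not pass in G9a-Glp epiblast (log2 -0.66, adjusted p = 0.104), G9a-Glp ExE (-0.72, adjusted p = 0.0794), Rnf2 ExE (-0.50, adjusted p = 0.173) or Eed ExE (0.09, adjusted p = 0.802), where 34.6%, 15.2%, 22.2% and 40.8% of genes were called. In bulk samples fewer cells of a type and less RNA per cell cannot be told apart.

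Within an embryo the epiblast and ExE often differed in their Peg3 share. ExE was the higher tissue in 6 of 9 Eed, 4 of 5 G9a-Glp and 3 of 3 Rnf2 embryos with both libraries, and in 0 of 3 Dnmt1 embryos. In the wild type it was higher in 3 of 7 BDF1xCAST and 1 of 4 CASTxBDF1 embryos. Eed embryo 6 had 0% in epiblast and 45.9% in ExE, whereas Eed embryo 2 had 14.9% and 4.12%, and G9a-Glp embryo 4 had 31.0% and 15.6%. The knockout effect on the allelic ratio was not shown to differ between tissues for any of the 4 knockouts. The difference of the effects (ExE minus epiblast) was -1.72 for Dnmt1, -0.24 for G9a-Glp, 0.93 for Rnf2 and 0.41 for Eed, with SE from 1.08 to 1.91 and edgeR adjusted p from 0.961 to 0.991. The share of genes called for this difference was 0.00%, 0.311%, 0.274% and 0.865% in that order. Pairs were formed by the embryo number of the labels, which disagrees with the number in the sample title for Eed embryos 7 to 10. By deviations of expression from the group mean, 2 of 9 Eed epiblasts were most like the ExE of their own number. In wild-type BDF1xCAST it was 5 of 7. By the sample titles, the epiblasts of Eed embryos 8, 9 and 10 would instead pair with the ExE of embryos 7, 8 and 9. Pairs by title were not counted here, so the Eed pairs rest on the embryo numbers of the labels alone.

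**Figure D3:**
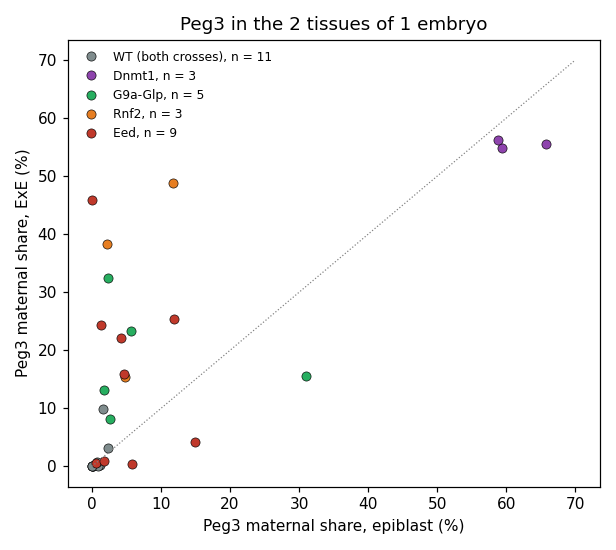
Maternal share of Peg3 in the ExE (y axis, percent) against that in the epiblast (x axis, percent) of the same embryo, paired by the embryo number of the labels. Each point is 1 embryo, colours give the genotype, and the dotted line marks equal shares. Most Eed, G9a-Glp and Rnf2 points lie above the line, and the 3 Dnmt1 points lie below it.

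Markers of other cells differed between the groups in which Peg3 differed, and their part in the Peg3 values was not tested. Summed markers of maternal decidua and stroma (8 genes) lay at 3.16 to 15.2 CPM in wild-type BDF1xCAST epiblast, with 2 to 4 genes detected. They lay wholly above that in Rnf2 epiblast (20.1 to 44.8 CPM, 4 to 6 genes) and G9a-Glp epiblast (19.6 to 36.9 CPM, 3 to 5 genes), and overlapped it in Eed epiblast (8.99 to 38.7 CPM) and Dnmt1 epiblast (10.3 to 26.2 CPM). In ExE the wild type had 3.22 to 10.86 CPM with 1 to 2 genes, and Eed lay wholly above it (10.93 to 49.7 CPM, 3 to 5 genes). Rnf2 ExE (6.49 to 12.9 CPM), G9a-Glp ExE (1.65 to 11.97 CPM) and Dnmt1 ExE (2.58 to 9.35 CPM) overlapped the wild type. Of the defining genes, Prl8a2 was at 0 in 70, Col3a1 in 68 and Lum in 65 of 72 libraries. Dcn was at 0 in 36, Des in 13 and Cryab in 0 of them. A higher sum is thus no measure of decidua by itself. Markers of visceral endoderm (9 genes) summed to 38.7 to 77.5 CPM in Eed ExE, wholly above the 12.8 to 27.5 CPM of wild-type BDF1xCAST ExE. They reached 49.6 CPM in Rnf2 ExE, 139 CPM in G9a-Glp ExE and 42.2 CPM in Dnmt1 ExE. In epiblast they ran from 5.03 to 479 CPM in wild-type BDF1xCAST and overlapped it in each knockout (9.41 to 300.3 CPM). Of all single genes with a read, 3.82% lay wholly above the wild type in Rnf2 epiblast. It was 4.55% in G9a-Glp epiblast and 3.61% in Eed ExE.

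The maternal share over all autosomal genes was 57.0% in Rnf2 ExE embryo 6, 56.6% in Eed ExE embryo 6 and 56.9% in G9a-Glp ExE embryo 7, while wild-type BDF1xCAST ExE embryos ran from 56.9% to 57.7%.

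Other paternally expressed imprinted genes were compared from a list of 22, of which 18 were in the table and between 7 and 10 passed the read minimum in a comparison. In the wild type 9 of 10 tested in epiblast and 7 of 9 in ExE were called lower from the maternal allele, where 0.319% and 0.844% of all genes tested were called. Nespas was called in the opposite direction (log2 3.99 in epiblast, SE 0.45, edgeR adjusted p = 1.21e-05), and was named after its value was seen. It overlaps sense transcripts, so its reads are uncertain as its own. Without Dnmt1 the maternal ratio rose for 8 of 9 listed genes in epiblast and 6 of 7 in ExE, where 0.908% and 0.856% of all genes were called. Mcts2 rose from a mean maternal share of 1.10% to 53.8% in epiblast, and Kcnq1ot1, the noncoding RNA of an imprinted domain elsewhere on the chromosome, from 1.26% to 62.4% in ExE. The list's median log2 change was 4.68 in epiblast and 6.32 in ExE, against a median of -0.01 over all genes tested in each.

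In the other knockouts fewer listed genes were called. None of 10 passed in G9a-Glp epiblast and none of 8 in G9a-Glp ExE under edgeR, where 2 and 3 had an unadjusted p under 0.05, and DESeq2 called none in either. Of all genes edgeR called 1.79% and 1.10% there. Peg3 was called by edgeR in both, but by DESeq2 in ExE (5.42, adjusted p = 5.23e-05) and not in epiblast (2.82, adjusted p = 0.0811). In Rnf2 epiblast and in Eed epiblast 1 of 10 passed, which was Zdbf2 each time (mean maternal share 47.2% and 57.1%, against 1.99% in the wild type), where 0.696% and 1.06% of all genes were called. In Rnf2 ExE 1 of 9 passed, Sgce (10.4% against 1.02%), where 0.922% of all genes were called. In Eed ExE 3 of 9 passed, namely Mest (14.0% against 2.78%), Sgce (12.2%) and Impact (24.3% against 14.8%), where 2.65% of all genes were called. The list's median log2 change was 0.28, 0.71, 0.80, 2.36, 0.41 and 1.79 in G9a-Glp, Rnf2 and Eed, epiblast before ExE in each.

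Embryos with a high Peg3 share were compared with the median maternal share of the other listed genes with at least 20 reads in the same library. In Eed ExE the 4 embryos with 0.431% to 4.12% of Peg3 had medians of 1.20% to 5.71%, and the other 6 had medians of 10.9% to 31.2%. Because these embryos form separated sets, no correlation is given for them. In Eed epiblast Pearson's r was 0.901 (Spearman's rho 0.717, n = 9, permutation p = 0.00498 and 0.0362, adjusted p = 0.0214 over 7 relations). It was 0.407 without the 2 embryos farthest from the median, so it rests on those. In G9a-Glp ExE r was 0.854 (rho 0.524, n = 8, exact permutation p = 0.0134 and 0.197, adjusted p = 0.0312) and 0.199 without 2 embryos. The other 4 relations did not pass. Pearson's r was 0.572 in Rnf2 epiblast (rho 0.600, n = 6, exact permutation p = 0.246 and 0.242, adjusted p = 0.344), and 0.594 without 2 embryos. It was -0.31 in G9a-Glp epiblast (rho 0.029, n = 6, exact permutation p = 0.692 and 1, adjusted p = 0.692), and -0.20 without 2. In the wild type of BDF1xCAST it was -0.61 in epiblast (rho -0.54, n = 7, exact permutation p = 0.161 and 0.236, adjusted p = 0.281; -0.19 without 2) and 0.294 in ExE (rho 0.180, n = 7, exact permutation p = 0.542 and 0.701, adjusted p = 0.633; 0.041 without 2). Rnf2 ExE embryo 5 had 38.3% for Peg3 but a median of 1.41% over 5 other genes, and G9a-Glp epiblast embryo 4 had 31.0% but 1.45%.

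**Figure D4:**
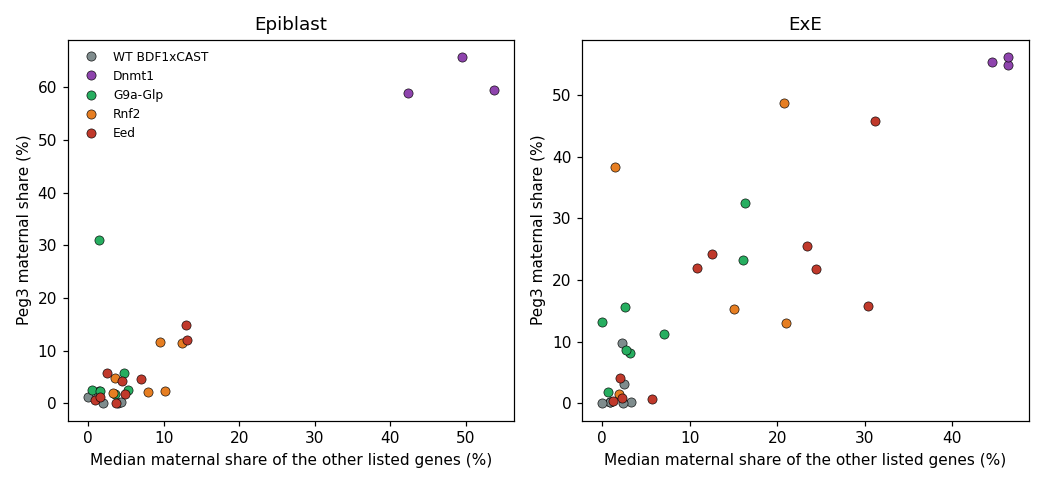
Maternal share of Peg3 (y axis, percent) against the median maternal share of the other listed paternally expressed genes (x axis, percent) in BDF1xCAST epiblast (left) and ExE (right). Each point is 1 library and colours give the genotype. Dnmt1 lies high on both axes, and single G9a-Glp and Rnf2 libraries are high for Peg3 but low for that median. A low median does not show that every other listed gene was low.

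The gene whose maternal share was most like that of Peg3 over the 12 groups was Kcnq1ot1, with a mean absolute difference of 4.56 percentage points among 5749 candidates. Mest (6.30), Impact (7.49), Mcts2 (7.83) and Fkbp6 (9.65) followed. By total level over 72 libraries (Pearson's r of log2(CPM + 1), 13225 candidates) the closest to Peg3 were Fem1b (0.71), Sdha (0.68), Evi5 (0.65), Galnt1 (0.64) and Mprip (0.63). These are descriptions of likeness over libraries that share tissues and depth.

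Usp29, the divergent partner of Peg3, had only 288 reads over all 72 libraries, so its allelic ratio could not be tested by embryo. Pooled over embryos, 1 of 23 reads was maternal in wild-type BDF1xCAST epiblast (4.35%, exact 95% interval 0.110% to 21.9%) and 0 of 8 in CASTxBDF1 epiblast (upper bound 36.9%). In Dnmt1 epiblast 7 of 15 were maternal (46.7%, 21.3% to 73.4%), in Eed epiblast 10 of 33 (30.3%, 15.6% to 48.7%) in Rnf2 epiblast 12 of 51 (23.5%, 12.8% to 37.5%) and in G9a-Glp epiblast 8 of 41 (19.5%, 8.82% to 34.9%). Single libraries weigh in these counts. Without the library with the most maternal reads, 2 of 7 were maternal in Dnmt1 epiblast (embryo 1 left out, 28.6%, 3.67% to 71.0%), 4 of 25 in Eed epiblast (embryo 10, interval 4.54% to 36.1%), 6 of 30 in Rnf2 epiblast (embryo 6, interval 7.71% to 38.6%) and 3 of 33 in G9a-Glp epiblast (embryo 3, 9.09%, 1.92% to 24.3%). Each of these intervals overlaps that of the wild type. In G9a-Glp ExE 15 of 39 were maternal (38.5%, 23.4% to 55.4%), but 10 of the 15 came from embryo 1, where 11 reads were counted, and 5 of 28 were maternal without it (17.9%, 6.06% to 36.9%). In Rnf2 ExE 3 of 24 were maternal (12.5%, 2.66% to 32.4%) and in Dnmt1 ExE 1 of 6 (16.7%, 0.421% to 64.1%). In Eed ExE 2 of 34 were maternal (5.88%, 0.720% to 19.7%). The Peg3 share pooled over the same libraries, 19.2%, lay inside that interval. In wild-type BDF1xCAST ExE 3 of 12 Usp29 reads were maternal (25.0%, 5.49% to 57.2%). These intervals cover counting error only, as reads without molecular identifiers are not independent molecules.

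The level of Usp29 was 1.50 ± 1.46 CPM in wild-type BDF1xCAST epiblast and 0.593 ± 0.526 CPM in ExE (SD, n = 7 each). It was 3.16 ± 1.60 CPM in Dnmt1 epiblast (n = 3), 2.86 ± 1.72 CPM in G9a-Glp epiblast (n = 6) and 1.78 ± 1.33 CPM in G9a-Glp ExE (n = 8). In the last group 5 of 8 embryos lay above all wild types, with an exact permutation p of 0.0404 (adjusted 0.215 over 32 comparisons). None of the 8 comparisons of Usp29 passed after adjustment, and edgeR without a filter on low counts gave no adjusted p under 0.05 for it either. Its annotation overlaps that of Zim3, a neighbouring zinc finger gene, by 11536 bases. The 2 genes had equal counts above 0 in 13 libraries and differed by at most 2 reads in 48 of 64 libraries with a read of either, so their values are uncertain as separate genes. Zim3 was also the gene most like Usp29 by level (r = 0.75).

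In the wild type, Zim1 had more reads in ExE than in epiblast. Wild-type BDF1xCAST ExE embryos had 1.49 to 3.60 CPM with a median of 2.15 CPM, each from 4 to 11 reads, whereas 5 of 7 epiblast embryos had none and the highest had 1.53 CPM. Thus 6 of 7 ExE embryos lay above all epiblasts (exact permutation p = 0.00117, adjusted p = 0.0117 over 10 comparisons). Both tissues came from the same embryos, and the ExE value was the higher one in 7 of 7. An exact permutation within embryos, chosen after seeing the data, gave p = 0.0156, the smallest that 7 pairs can give. Adjusted over 10 comparisons it was 0.156. A single p at that floor cannot pass this adjustment, so the paired test could not decide. In CASTxBDF1 the means were 2.61 ± 1.89 CPM and 0.283 ± 0.352 CPM (SD, n = 4 each, exact permutation p = 0.0571, adjusted 0.286). Within those embryos 3 of 4 were higher in ExE (exact permutation p = 0.250, adjusted 0.625, and 4 pairs cannot go below 0.125). edgeR without a filter gave log2 differences of 3.00 (SE 0.87, adjusted p = 0.00640) and 2.99 (SE 1.06, adjusted p = 0.0219), where 34.7% and 27.3% of genes were called. Knockout epiblasts held Zim1 reads as well. Its level was 0.707 ± 0.839 CPM in Eed epiblast (SD, n = 9), with 1.95 and 2.07 CPM in embryos 8 and 9. In Rnf2 epiblast it was 0.534 ± 0.606 CPM (SD, n = 6) with 1.64 CPM in embryo 2, and its 34 reads came from the deepest libraries. In G9a-Glp epiblast 1 of 6 embryos had reads (0.816 CPM), and the 3 Dnmt1 epiblasts had none. The genes most like Zim1 by level were Adgrg6 (r = 0.72), Pglyrp1 (0.71), Rhox6 (0.70), AU015836 (0.70) and Lgals1 (0.69).

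In wild-type ExE, Zim1 reads were more often maternal than paternal. Pooled over wild-type ExE, 29 of 46 reads were maternal in BDF1xCAST (63.0%, exact 95% interval 47.5% to 76.8%) and 31 of 37 in CASTxBDF1 (83.8%, 68.0% to 93.8%). The second value lies above the 42.7% to 43.9% that autosomal genes gave in those libraries, while the first interval includes the 56.9% to 57.7% of its own. Among knockouts the maternal counts were 64 of 97 in Eed ExE (66.0%, 55.7% to 75.3%), 28 of 37 in Rnf2 ExE (75.7%, 58.8% to 88.2%), 9 of 17 in G9a-Glp ExE (52.9%, 27.8% to 77.0%) and 4 of 5 in Dnmt1 ExE. A change from the wild type was not detectable in ExE at this depth. In epiblast the maternal counts were 0 of 4 in wild-type BDF1xCAST, 2 of 3 in CASTxBDF1 and 0 of 2 in G9a-Glp. They were 22 of 34 in Rnf2 and 14 of 17 in Eed.

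Zim1 was lower in G9a-Glp ExE, at 0.793 ± 0.529 CPM (SD, n = 8) against 2.25 ± 0.742 CPM (SD, n = 7). Of the 8 embryos, 7 lay below all wild types and the other, at 1.492 CPM, lay just above the lowest of them at 1.489 CPM (exact permutation p = 0.000622, adjusted p = 0.0199 over 32 comparisons). edgeR without a filter did not call it (log2 change -1.51, SE 0.63, adjusted p = 0.124, with 8.20% of genes called). Dnmt1 ExE embryos 1, 2 and 3 had 1.02, 0.585 and 0.860 CPM, all below the wild type (exact permutation p = 0.0167, the smallest possible, adjusted 0.133). In 3.97% of genes with a read the Dnmt1 ExE levels lay wholly below the wild type. Rnf2 ExE had 1.05 ± 0.609 CPM with 3 of 5 embryos below all wild types (exact permutation p = 0.0101, adjusted 0.108). Eed ExE had 3.46 ± 2.58 CPM and ranged from 0.622 to 9.57 CPM, wider than the wild type on both sides (exact permutation p = 0.240, adjusted 0.769).

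**Figure D5:**
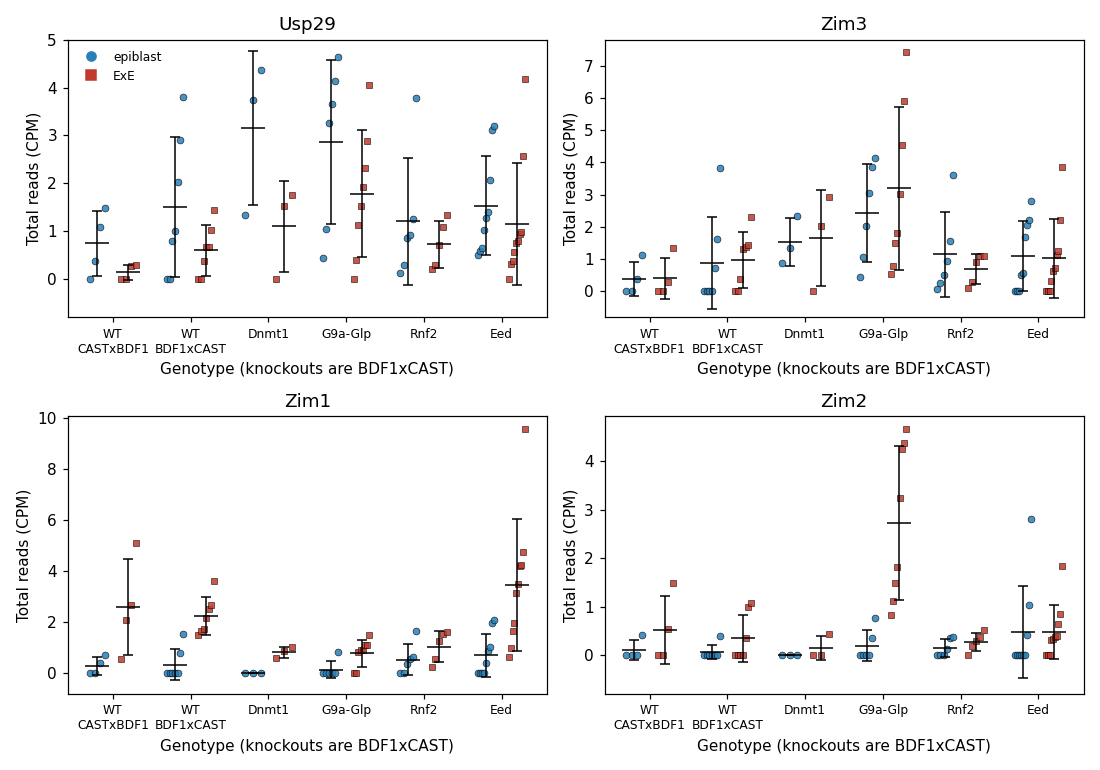
Total level in CPM (y axes, each with its own scale) of Usp29, Zim3, Zim1 and Zim2 by genotype (x axis). Points are embryos, blue circles for epiblast and red squares for ExE, and bars are mean ± SD. Zim1 is higher in ExE than epiblast in 7 of 7 wild-type BDF1xCAST embryos and low in G9a-Glp ExE, where Zim2 is above its wild-type level in 7 of 8 embryos.

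Zim2, a further zinc finger gene of the domain that is no member of the 3 above, rose in G9a-Glp ExE. Its level there was 2.72 ± 1.59 CPM (SD, n = 8) against 0.346 ± 0.490 CPM (SD, n = 7), with 7 of 8 embryos above all wild types. The exact permutation p was 0.00124 (adjusted 0.0199 over 32 comparisons). The edgeR log2 change without a filter was 2.77 (SE 0.74, adjusted p = 0.0112, with 8.20% of genes called). Of its 58 pooled reads 36 were maternal (62.1%, exact 95% interval 48.4% to 74.5%), against 1 of 7 in wild-type BDF1xCAST ExE (14.3%, 0.361% to 57.9%) and 5 of 7 in CASTxBDF1 ExE (71.4%, 29.0% to 96.3%). In G9a-Glp epiblast Zim2 was at 0.187 ± 0.320 CPM (n = 6). Zim1 and Zim2 lie side by side on the far side of Peg3 from Usp29. In G9a-Glp ExE the permutation tests passed for a lower Zim1 and a higher Zim2, on 17 and 58 pooled reads. Without a filter, edgeR called the rise of Zim2 but not the fall of Zim1. Zfp264, Apeg3 and Peg3os were not analysed here.

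Around the domain, 24 further genes of the table lie within 500 kb of Peg3. Between 2 and 7 of them passed the minimum for an allelic test in a comparison, and none was called in any knockout or for the parental term in the wild type under edgeR. Over the 8 knockout comparisons, 1 of 41 such tests had an unadjusted p under 0.05, and DESeq2 called 0. At the level of total reads, 1 of 5 was called higher in Eed epiblast (Gm6792), where 35.7% of all genes were called. In G9a-Glp ExE it was 1 of 6 (Aurkc, a meiotic kinase gene next to Zim3), where 15.2% were called, and no other flanking gene was called in a knockout.

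Genes that protect imprints were read from a list of 7 (Dnmt1, Uhrf1, Zfp57, Zfp445, Trim28, Dppa3 and Setdb1). Of these 5 or 6 could be tested in a comparison, and none was called for its allelic ratio by edgeR in a knockout or for the parental term in the wild type. Over the 8 knockout comparisons, 5 of 43 such tests had an unadjusted p under 0.05, and DESeq2 called 0. In total level, 5 of 6 were lower and 1 higher in wild-type BDF1xCAST ExE than in epiblast, where 56.7% of genes were called. Among knockouts the only listed gene of 6 called in Dnmt1 epiblast was Dnmt1 itself (14.1% of all genes called), and none of 5 was called in Dnmt1 ExE (18.5%). In epiblast 3 of 6 were called in each of G9a-Glp (34.6% of all genes called), Rnf2 (31.0%) and Eed (35.7%). The ExE counts were 4 of 6 for Eed (40.8%), 3 of 5 for Rnf2 (22.2%) and 1 of 5 for G9a-Glp (15.2%). Dppa3, which shields maternal methylation in the zygote, rose in Rnf2 epiblast (log2 change 4.19, SE 0.47, edgeR adjusted p = 1.34e-05), Eed epiblast (3.18, SE 0.35) and Eed ExE (4.05, SE 0.60). Trim28, the corepressor recruited by ZFP57, fell in ExE by 0.81 in G9a-Glp, 1.00 in Rnf2 and 0.91 in Eed on the log2 scale. Setdb1, an H3 lysine 9 methyltransferase, fell in both tissues of Rnf2 and Eed and in G9a-Glp epiblast, by 0.64 to 0.80. The mean level of Dnmt1 lay above the wild type in G9a-Glp, Rnf2 and Eed. In epiblast it was 56.3, 39.8 and 53.5 CPM in that order, against 33.0 CPM in wild-type BDF1xCAST. In ExE it was 63.4, 56.4 and 84.6 CPM, against 47.5 CPM. The part of these changes in the Peg3 values was not tested.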

How the data were processed

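Epiblast and ExE of single embryos were sequenced from SMART-Seq v4 libraries, with visceral endoderm removed, per the labels' protocols. The submitters' processing notes name STAR 2.5.0, HTSeq and mm10, and the rest of the authors' pipeline is not given in the sources used here. The authors deposited, per gene and library, a read count over strain polymorphisms, an allelic ratio rounded to 2 decimals, and an allelic score, the signed -log10 of a binomial p-value, which is 0 under 10 reads. Only reads over polymorphisms are counted, so levels depend on polymorphism density and are not compared between genes.

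Whole allele counts were recovered from the count, ratio and score: 712271 of 712372 scored values below the score's limit were matched within 0.0015 (99.98582%). For 3277 values at the limit, 5 of them of Peg3, the rounded ratio set the allele counts. CPM is reads per 1000000 allele-assigned reads of a library. Allelic ratios, allele levels and totals were fitted with edgeR 4.0.16 (quasi-likelihood test, Benjamini-Hochberg adjustment, threshold 0.05). Allelic ratios were fitted over autosomal genes with at least 10 reads in 3 libraries per group. Totals were fitted over all genes that passed the edgeR filter on low counts (filterByExpr), and allele levels over the autosomal ones among them. Each knockout was compared with the BDF1xCAST wild type of its tissue, so knockouts of 1 tissue share controls. Peg3 passed these minimums, whereas Usp29, Zim1 and Zim2 did not and were tested by two-sided exact permutation of CPM (scipy 1.17.1) and by edgeR without a filter. Pooled allele shares have exact 95% binomial intervals. Nothing beyond embryo numbers says how embryos relate, so p-values measure the spread between these samples. Scripts were tested on simulated data.

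Alternatives were limma 3.58.1, DESeq2 1.42.0, other filters, all groups in 1 fit, the rounded ratio, a replicate block, each replicate left out and libraries left out after seeing the data. The numbers did not pair knockouts with wild types (mean correlation of same-numbered deviations from -0.15 to 0.08). Both tissues of a numbered embryo come from 1 animal per the labels. For these tissue pairs the mean correlation was 0.24 and 0.22 in wild-type BDF1xCAST and CASTxBDF1, and 0.13 in Rnf2. In G9a-Glp (0.078), Dnmt1 (0.072) and Eed (0.039) it lay near or inside the range of unpaired embryos, so those pairs rest on the labels. Named genes were the members, other measured genes of the domain, called genes within 500 kb, at most 3 listed imprinted genes per comparison by change in share, and the 5 genes most like each member. The members and lists were chosen with earlier results of these data known. A bisulfite sample was not analysed here.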

Additional observations from a re-analysis of the deposited data

Results flagged for a closer look

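Of 40 sets of embryos tested for a value far from the rest (Peg3 share and the levels of Peg3, Usp29 and Zim1), 9 had one. The thresholds are those for normally distributed values, and shares and low counts bounded at 0 are not. A set with all values at 0 but 1 is always flagged, so the number of flags cannot be compared with a chance rate. For the Peg3 maternal share these were G9a-Glp epiblast embryo 4 (31.0%), wild-type BDF1xCAST ExE embryo 3 (9.82%, 64 of 652 reads) and wild-type CASTxBDF1 ExE embryo 4 (0.735%, 4 of 544 reads, with the other 3 at 0). For the total level of Peg3 they were Eed epiblast embryo 1 (245 CPM, the highest), wild-type BDF1xCAST ExE embryo 6 (445 CPM, the highest) and wild-type CASTxBDF1 epiblast embryo 4 (99.2 CPM, the lowest). Zim1 stood apart in Eed ExE embryo 3 (9.57 CPM, 26 reads) and G9a-Glp epiblast embryo 3 (0.816 CPM, 2 reads, the only embryo of its group with any). Usp29 stood apart in Rnf2 epiblast embryo 6 (3.78 CPM). Eed ExE embryo 3 also had the highest summed decidua and stroma markers (49.7 CPM), whose part in its Zim1 level was not tested.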

How the results depend on the processing

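Of the alternatives for the members' results, 276 kept direction and side of the threshold, 51 lost the call, 5 gained one and 13 changed sign. The cause was not tested. Allelic changes of Peg3 lost the call under limma in Dnmt1 ExE (8.21), Eed epiblast and ExE (2.39, 4.36), G9a-Glp epiblast and ExE (3.03, 4.98) and Rnf2 epiblast and ExE (3.01, 5.50). The same held with all groups in 1 fit for Eed epiblast (2.95), G9a-Glp ExE (3.31) and Rnf2 epiblast (2.99), and under DESeq2 for Eed and G9a-Glp epiblast (2.47, 2.82). It held with the rounded ratio for Rnf2 epiblast and ExE (3.13, 3.93), with a minimum of 50 reads for Rnf2 ExE (3.88), with the replicate block for Eed ExE (3.44) and Rnf2 epiblast (3.00), and without libraries whose targeted gene was not low for Rnf2 ExE (2.34). Without a read minimum no call was lost, and adjusted p was many orders smaller than in any other fit.

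With the replicate block the maternal level lost the call in Eed and Rnf2 epiblast (1.84, 1.73) and gained it in G9a-Glp ExE (3.49). The block ended the call of the paternal fall in Eed epiblast (-0.82), G9a-Glp epiblast and ExE (-0.36, -0.69) and Rnf2 epiblast and ExE (-1.22, -0.82). For the total it gave 0.84 in Dnmt1 ExE, now called, and -0.74 and -1.13 in Eed and Rnf2 epiblast, no longer called. Between wild-type tissues the block changed no call of Peg3. For Zim1 in BDF1xCAST (1.92 CPM higher in ExE) the permutation within embryos, added after seeing the data, did not pass (adjusted p = 0.156). Its p was at the floor of 7 pairs, which cannot pass this adjustment alone. Without a filter, G9a-Glp ExE gained a call for the maternal level (2.38) and the total (-0.72), and Dnmt1 ExE for the paternal level (-0.62). DESeq2 lost the maternal level of Rnf2 ExE (3.39). Without the doubted libraries the maternal level of Rnf2 ExE (1.99) and the paternal levels of G9a-Glp epiblast (-0.75) and Rnf2 ExE (-0.62) lost the call. The share difference was then 53.9 points in Dnmt1 ExE and 5.30 points in Rnf2 ExE.

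The uncalled difference between tissues changed sign under limma for Dnmt1 (0.10) and G9a-Glp (1.95), without wild-type ExE embryo 3 for the same knockouts (0.33, 1.76), and without the doubted libraries for Rnf2 (-0.67). Leaving out 1 embryo at a time gave -1.62 to 0.73 for the wild-type tissue difference in allelic ratio, 3.26 to 4.35 for the allelic change in Rnf2 ExE, 2.70 to 3.67 for its maternal level and -1.17 to -0.80 for its paternal level. It gave 58.2 to 61.7 points for the share in Dnmt1 epiblast and 53.2 to 53.9 in ExE, where 2 against 7 embryos cannot pass after adjustment (0.0556). It gave -0.30 to 0.45 for the paternal level and 1.05 to 1.74 for the total in Dnmt1 epiblast, and -0.39 to 0.087 for the tissue difference of the total in CASTxBDF1. Counts of called genes moved by over 1.5 times in 92 of 301 alternatives, for the allelic ratio from 65 to between 25 and 137 in Dnmt1 epiblast and from 83 to between 15 and 251 in Rnf2 ExE. Depth limits Usp29 and Zim1, whose allele shares rest on pooled reads.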
